A study of Mus musculus with 12 samples.

Results

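Complement and coagulation factors are plasma proteins that hepatocytes make in large amounts and secrete. The complement cascade starts on a surface through C1 or through the lectin pathway, converges on C3, and ends in a pore built from C5b, C6, C7, C8 and C9. The coagulation cascade runs through serine proteases and their cofactors to thrombin, which turns fibrinogen into fibrin, and plasmin dissolves it. Several clotting proteases need a vitamin K dependent modification to bind membranes, and the protein C system limits them.

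The 41 names chosen for these cascades, with serpins left out, stand for 40 genes, since C5 and Hc are the same gene. Of these, 38 were represented by at least 1 probe set that the array's annotation gives a single symbol, out of 12393 genes represented in that way, while C3 and Cfd had none and are not analysed here. C1s was read under its current symbol C1s1. The 38 genes had 49 probe sets, and 7 of the genes had more than 1. Each gene is described by its brightest probe set, unless its others are named.

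The arrays measured liver RNA from 6 male mice lacking Pctp (Pctp-/-) and from 6 wild-type littermates, all on the FVB/NJ background. Pctp encodes phosphatidylcholine transfer protein, and every mouse of both genotypes ate a diet with 0.2% (wt/wt) fenofibrate, a drug that activates the nuclear receptor PPARα, for 7 days from 8 weeks of age until the livers were taken at 9 weeks. No mice without the drug were analysed here. The labels do not say which part of Pctp is disrupted. Each liver had an array of its own, and values are intensities in the authors' units.

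Pctp had an intensity of 82.5 ± 12.3 in knockout livers, against 2855 ± 77.2 in wild-type livers (SD, n = 6 each). The array medians lay between 84 and 91.2. Control probe sets that report RNA integrity differed between the genotypes: for beta-actin, the log2 of the 5′ signal over the 3′ signal averaged -1.19 ± 0.0846 in the knockout and -1.58 ± 0.134 in the wild type (SD, n = 6 each; two-sided exact permutation p = 0.00216, the smallest this design can give, and 0.00289 after adjustment over 4 transcripts). Gapdh and pyruvate carboxylase were also higher in knockout without overlap, by 0.11 and 0.33, and the transferrin receptor differed by 0.07 (exact p = 0.652). The beta-actin ratio moved with genotype for every result below, and its part in them was not tested. None of 6 hepatocyte markers was at 0, and of these only Hnf4a passed the test, higher by 0.32 on the log2 scale (limma, adjusted p = 0.0192). Of 7 stellate cell markers 3 were higher in knockout (Ecm1, Dcn and Reln), and of 2 erythroid markers Alas2 was lower. No marker of neutrophils (6), platelets (5), adipocytes (5) or cholangiocytes (4) passed (limma, 2, 1, 1 and 0 with an unadjusted p under 0.05).

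A pair of wild-type livers stood apart. In 15 of the 38 genes, wild-type replicates 2 and 5 both read above the other 4 wild-type livers. The share over all genes was not computed, so this count does not set the members apart. The summed intensity of 10 Kupffer cell and macrophage markers ran from 4279 to 5797 in knockout livers. In wild-type livers it was 7685 in replicate 2 and 7556 in replicate 5, and 3301 to 3941 in the other 4. None of these 10 markers was at 0 and none passed the test between genotypes (limma, 1 with an unadjusted p under 0.05). Counts are therefore also given without those livers, a choice made after seeing the data. Leaving them out raises the knockout minus wild-type difference of genes that read high in them, and lowers it for genes that read low. Calls gained or lost in that way are no independent results.

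Between genotypes, 6 of the 38 genes (15.8%) were lower in knockout livers and 1 (2.63%) was higher, at an adjusted p under 0.05 on log2(intensity + 16). Over all 12393 genes, 5.24% were lower and 6.46% were higher by the same rule. The lower genes were C9, the last component of the complement pore, the clotting proteases F7 and F9, the contact-phase protease Klkb1, the anticoagulant cofactor Pros1, and Vwf, which tethers platelets and carries factor VIII. The higher gene was F8, which encodes factor VIII. The median log2 difference of the 38 genes, knockout minus wild type, was -0.05, against 0.01 over all genes. In 4 of the 38 (10.5%) every knockout liver read below every wild-type liver, where 3.12% of all genes did so, and in 0 of the 38 every knockout liver read above every wild-type liver, where 3.68% of all genes did. Without wild-type replicates 2 and 5, 4 genes were lower (C9, F9, Klkb1 and Vwf) and 1 was higher, which was then C6 in place of F8. In the same fit 3.28% of all genes were lower and 5.75% were higher. Among wild-type livers C6 read highest in those 2, so leaving them out raises its difference by construction. After median centring 7 of the 38 were lower and 1 was higher, where 7.17% of all genes were lower and 4.92% were higher. A minimum mean intensity of 50 kept 37 of the 38 genes. Of these, C9, F7, F9, Klkb1 and Pros1 were then lower, and F3 and F8 were higher. In that fit 9.92% of the 8304 genes kept were lower and 12.5% were higher.

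**Figure D1:**
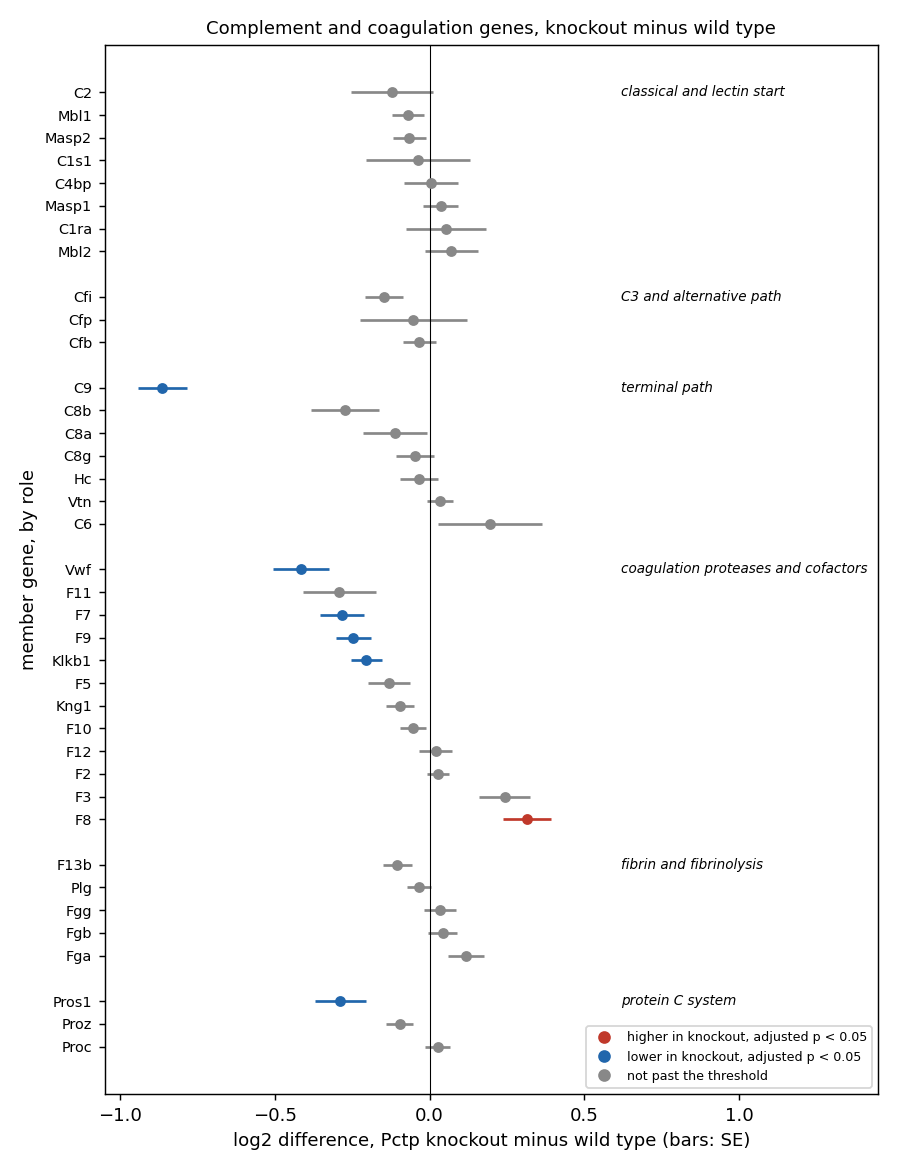
The horizontal axis gives the log2 difference, knockout minus wild type, and each point is 1 of the 38 genes with its SE, ordered by role. C9 lies farthest from 0 at -0.86, and the other genes lie between -0.42 and 0.31.

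Promoters of 3 of the lower genes were read from RefSeq (build GRCm38.p6), from 250 bases before to 50 after the annotated start. C9 is shown for its size of change, and F7 and F9 as vitamin K dependent proteases that both fell. C9 lies at chr15:6445096-6445395, F7 at chr8:13025784-13026083 and F9 at chrX:59999214-59999513, all on the plus strand. Capitals mark matches to 4 motifs searched on both strands: the STAT5 motif TTCNNNGAA, the HNF1 motif GTTAAT, the HNF4 and PPAR direct repeat of AGGTCA spelled again after 1 base with up to 2 mismatches, and the C/EBP motif TTGCGCAA with up to 1 mismatch.
C9: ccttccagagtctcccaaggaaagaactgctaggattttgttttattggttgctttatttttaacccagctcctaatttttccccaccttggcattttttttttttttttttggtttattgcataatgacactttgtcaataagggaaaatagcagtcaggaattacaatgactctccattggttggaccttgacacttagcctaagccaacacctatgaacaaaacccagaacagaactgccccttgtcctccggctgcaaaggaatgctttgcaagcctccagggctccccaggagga
F7: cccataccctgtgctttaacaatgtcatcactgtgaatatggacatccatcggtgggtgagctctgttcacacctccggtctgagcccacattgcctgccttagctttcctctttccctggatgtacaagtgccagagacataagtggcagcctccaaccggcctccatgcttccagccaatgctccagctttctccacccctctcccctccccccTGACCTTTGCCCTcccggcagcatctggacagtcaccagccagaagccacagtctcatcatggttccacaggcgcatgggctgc
F9: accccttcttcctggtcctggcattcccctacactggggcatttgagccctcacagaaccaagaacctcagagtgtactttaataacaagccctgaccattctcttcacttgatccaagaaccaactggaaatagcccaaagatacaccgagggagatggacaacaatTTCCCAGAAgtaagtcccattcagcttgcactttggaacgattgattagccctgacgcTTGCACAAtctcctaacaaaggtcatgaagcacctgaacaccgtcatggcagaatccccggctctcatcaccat

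The F7 promoter held the direct repeat, beginning at position -34 from the start, with 1 mismatch. The F9 promoter held the STAT5 motif at -82 and the C/EBP motif at -24, while the C9 window held none of the 4. Of 30 members with a promoter in the table, 2 (6.67%) held the direct repeat, against 4.40% of 27025 genes. The STAT5 motif was found in 8 of the 30 (26.7%) and in 9.55% of all genes, and the C/EBP motif in 5 (16.7%) and in 6.77%. The HNF1 motif was in 12 of the 30 (40.0%), against 8.24% of all genes. Among the 6 of these members that passed the test between genotypes, the STAT5 motif was in 2 (F9 and Pros1), the direct repeat in 1 (F7), the C/EBP motif in 1 (F9) and the HNF1 motif in 0. No marked motif overlaps another, and a match is a description of letters.

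In the terminal complement pathway 1 of 7 genes was lower and none was higher, where 5.24% of all genes were lower and 6.46% were higher. C9, whose product polymerises to form the pore, had a lowest, median and highest intensity of 832, 1015 and 1157 in knockout livers, against 1615, 1828 and 2000 in wild-type livers. Every knockout liver lay below every wild-type liver with a wide gap. The mean was 998 ± 114 in the knockout and 1823 ± 140 in the wild type (SD, n = 6 each). This is a log2 difference of -0.86 (SE 0.0790, adjusted p = 0.000129, limma), or 1.82-fold lower. In the authors' deposited table C9 has a fold of -1.83 with a present call on 100% of the arrays of both groups. No alternative ended this call, and the adjusted p reached at most 0.00215.

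The other 6 genes of the terminal pathway did not pass, and values given for a gene without a unit are log2 differences, knockout minus wild type. C8b, which encodes the beta chain of C8, averaged 384 ± 61.1 in the knockout and 467 ± 65.7 in the wild type (SD, n = 6 each; log2 difference -0.27, adjusted p = 0.133). C8a, its alpha chain and its neighbour on chromosome 4, was at -0.11 and C8g, the gamma chain, at -0.05. Hc, the gene of C5, was at -0.03 and Vtn, which encodes vitronectin, an inhibitor of pore assembly, at 0.03. C6 averaged 424 ± 47.9 in the knockout and 381 ± 125 in the wild type (SD, n = 6 each; log2 difference 0.20, adjusted p = 0.510). Its wild-type values ran from 240 to 607, and wild-type replicates 2 and 5, at 607 and 421, were the highest. Without them C6 was at 0.42 (adjusted p = 0.0460), past the threshold, but leaving out its highest wild-type values raises its difference by construction.

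The 8 genes listed with the start of the classical and lectin pathways include the inhibitor gene C4bp. None of the 8 passed by its brightest probe set (limma, 0 with an unadjusted p under 0.05), and their differences lay between -0.12 and 0.07. C1ra and C1s1, neighbouring genes on chromosome 6 that encode the proteases of C1, averaged 1327 ± 130 and 354 ± 29.2 in knockout livers and 1301 ± 310 and 378 ± 130 in wild-type livers (SD, n = 6 each). The wild-type spread rested on the livers named above. C1ra read 1791 in wild-type replicate 2 and 1588 in replicate 5, and 1051 to 1152 in the other wild-type livers, while knockout livers ran from 1187 to 1517. C1s1 read 592 and 477 in those replicates and 253 to 338 in the other wild-type livers. C2, the protease of the C3 convertase, read 360 and 310 there and 211 to 245 in the others. These probe sets may also detect the near-identical copies of C1ra and C1s1, so the values of those 2 genes are uncertain.

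The lectin genes Mbl1 and Mbl2, which encode mannose-binding lectins, were at -0.07 and 0.07. Their proteases Masp1 and Masp2 were at 0.04 and -0.06. Of the 5 Masp1 probe sets the second brightest was higher in knockout, at 231 ± 17.4 against 190 ± 22.2 in wild type (SD, n = 6 each; log2 difference 0.27, adjusted p = 0.0432), and the other 4 did not pass. C4bp, which encodes an inhibitor of the classical pathway, averaged 1911 ± 189 in the knockout and 1909 ± 234 in the wild type (SD, n = 6 each).

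In the alternative pathway none of the 3 measured genes passed (limma, 1 with an unadjusted p under 0.05). Cfb, the factor B protease, was at -0.03. Cfi, the protease that inactivates C3b, averaged 2762 ± 202 in the knockout and 3059 ± 197 in the wild type (SD, n = 6 each; log2 difference -0.15, adjusted p = 0.142), and it passed after median centring at -0.18 (adjusted p = 0.0472). Cfp encodes properdin, which leukocytes make. It read 193 in wild-type replicate 2 and 189 in replicate 5, against 91.1 to 106 in the other wild-type livers, in parallel with the Kupffer cell marker sum. Whether those cells account for its spread was not tested.

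**Figure D2:**
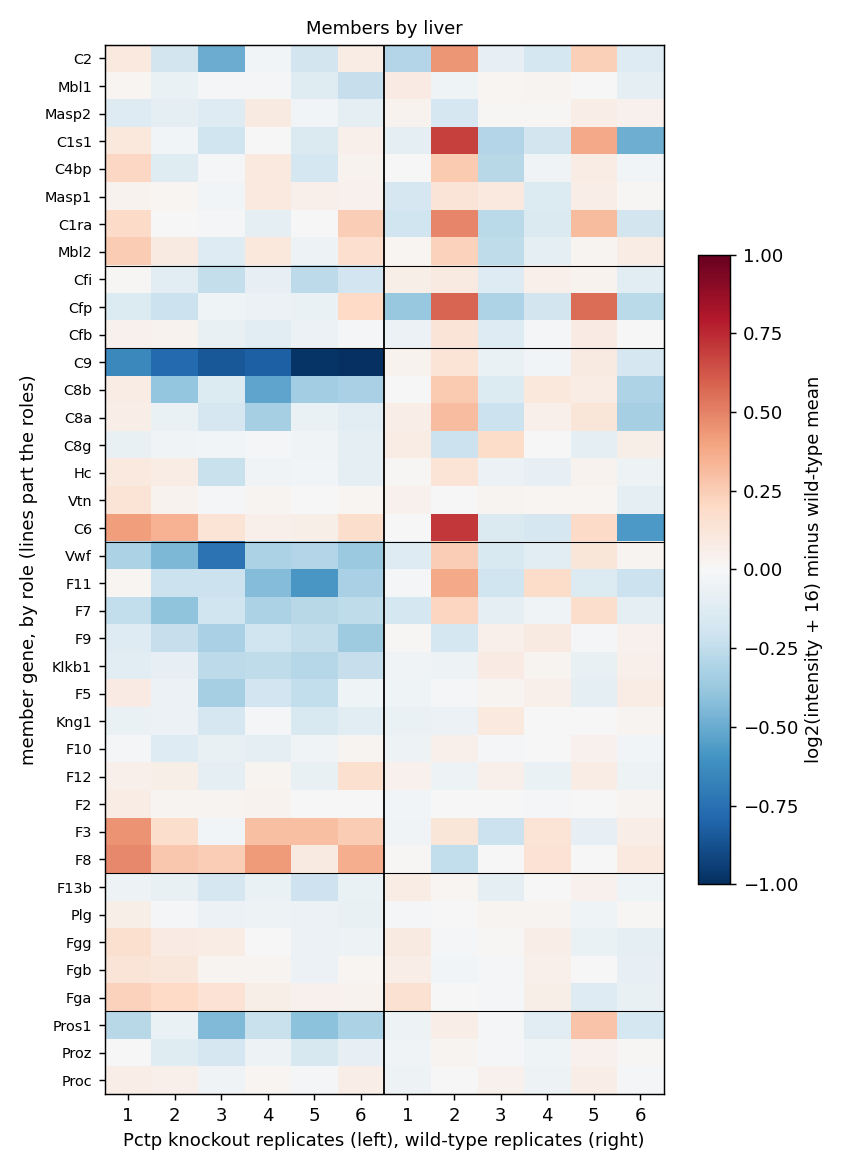
Each row is 1 of the 38 genes and each column a liver, with knockout replicates on the left and wild-type replicates on the right. Colour gives log2(intensity + 16) minus the wild-type mean, on a scale that ends at -1 and 1. C9 is blue in every knockout liver, and C1ra, C1s1, C2 and Cfp are red in wild-type replicates 2 and 5.

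Among coagulation proteases and cofactors, 4 of 12 genes were lower and 1 was higher, where 5.24% of all genes were lower and 6.46% were higher. Factor VII, the product of F7, starts clotting with tissue factor. F7 had a lowest, median and highest intensity of 269, 298 and 313 in knockout livers, against 317, 346 and 423 in wild-type livers. The groups did not overlap, but the gap between them was small. The log2 difference was -0.28 (SE 0.0715, adjusted p = 0.0223, limma), or 1.22-fold lower. Wild-type replicates 2 and 5 were the highest livers, and without them the difference was -0.19 (adjusted p = 0.0585), not past the threshold.

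F9 encodes factor IX, the protease missing in haemophilia B. It had a lowest, median and highest intensity of 1717, 1868 and 2013 in knockout livers, against 1945, 2244 and 2341 in wild-type livers. The groups overlapped because wild-type replicate 2 was low at 1945. The log2 difference was -0.25 (SE 0.0565, adjusted p = 0.0145, limma), or 1.19-fold lower. Without wild-type replicates 2 and 5 it was -0.29 (adjusted p = 0.0119).

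Klkb1 encodes plasma prekallikrein, which acts with factor XII in the contact phase. Its lowest, median and highest intensities were 2100, 2171 and 2418 in knockout livers, against 2440, 2557 and 2719 in wild-type livers. No livers overlapped, though the gap between the groups was small. The log2 difference was -0.20 (SE 0.0506, adjusted p = 0.0209, limma), or 1.15-fold lower. F11, which encodes factor XI and lies next to Klkb1 on chromosome 8, averaged 163 ± 25.8 in the knockout and 204 ± 38.2 in the wild type (SD, n = 6 each; log2 difference -0.29, adjusted p = 0.138), and did not pass. Kng1, which encodes their cofactor kininogen, was at -0.10 by its brighter and 0.06 by its other probe set, and neither passed. Its probe sets may also detect the closely related Kng2. F12, of factor XII, was at 0.02.

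F10 encodes factor X, the protease that converts prothrombin, and its 3 probe sets disagreed in size. The brightest averaged 2569 ± 102 in the knockout and 2665 ± 71.8 in the wild type (SD, n = 6 each; log2 difference -0.05, adjusted p = 0.468). The middle one averaged 292 ± 26.3 in knockout livers and 352 ± 35.6 in wild-type livers, a difference of -0.25 (SD, n = 6 each; adjusted p = 0.0428, limma). The dimmest had a lowest, median and highest intensity of 99.1, 124 and 135 in knockout livers, against 146, 162 and 189 in wild-type livers. There the groups did not overlap, and the difference was -0.42 (SE 0.0799, adjusted p = 0.00559, limma). The authors' deposited table lists this dimmest probe set, with a fold of -1.37. F10 lies between F7 and Proz on chromosome 8, where Proz, of protein Z, was at -0.10 by its brighter probe set (limma, adjusted p = 0.169). The dimmer Proz probe set was at 0.13 (limma, adjusted p = 0.368), and neither passed. Over all 49 member probe sets, 8 were lower and 2 were higher. Among all 22626 probe sets 5.15% were lower and 6.82% were higher.

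**Figure D3:**
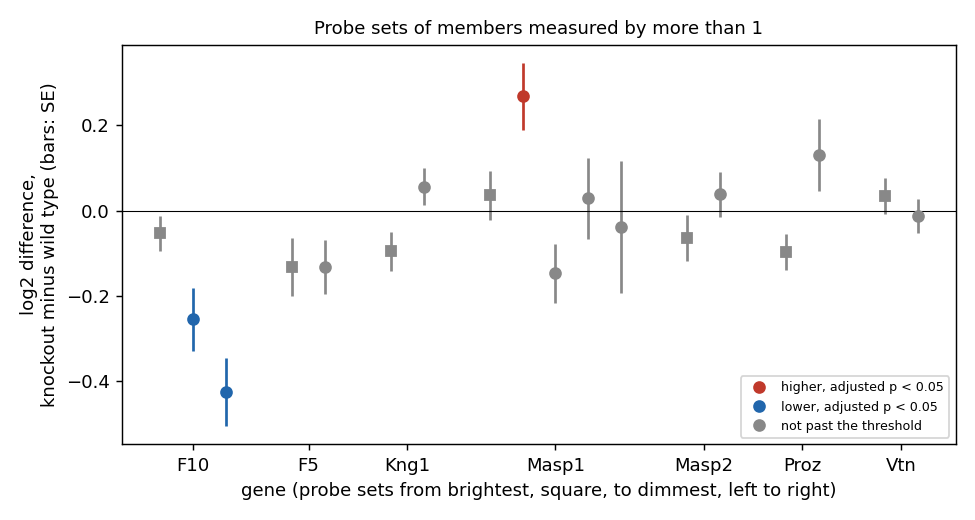
The vertical axis gives the log2 difference, knockout minus wild type, with its SE, for each probe set of the 7 genes that have more than 1, ordered from brightest (square) to dimmest. The 3 F10 probe sets run from -0.05 to -0.42, and 1 of 5 Masp1 probe sets is past the threshold.

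F8 and Vwf, whose products circulate as a complex, moved in opposite directions. In mouse liver both are known as products of endothelial cells. F8 had a lowest, median and highest intensity of 106, 127 and 144 in knockout livers, against 80.9, 99.2 and 111 in wild-type livers. The groups overlapped at knockout replicate 5 alone, which lay below wild-type replicates 4 and 6. The log2 difference was 0.31 (SE 0.0778, adjusted p = 0.0208, limma), or 1.24-fold higher. Wild-type replicate 2 was the lowest liver, and without wild-type replicates 2 and 5 the difference was 0.25 (adjusted p = 0.0685), not past the threshold.

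Vwf was dim, with a lowest, median and highest intensity of 15, 24.8 and 26.3 in knockout livers, against 30.7, 34.5 and 45.4 in wild-type livers. The groups did not overlap. The log2 difference was -0.42 (SE 0.0903, adjusted p = 0.0111, limma), or 1.33-fold lower, and the added constant of 16 makes this smaller than the ratio of intensities. With a constant of 1 the difference was -0.63 and with a constant of 64 it was -0.20, both past the threshold. In the authors' deposited table Vwf has a fold of -1.57, with present calls on 83% of knockout and 100% of wild-type arrays. Of 10 liver endothelial markers none passed (limma, 4 with an unadjusted p under 0.05). Their summed intensity ran from 2938 to 3284 in knockout livers and from 2815 to 3282 in wild-type livers, and none was at 0. In whole liver, fewer cells of a type and less RNA per cell cannot be told apart.

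F3, which encodes tissue factor, averaged 79.7 ± 10.2 in the knockout and 64.7 ± 7.40 in the wild type (SD, n = 6 each; log2 difference 0.24, adjusted p = 0.0759), and did not pass. Without knockout replicate 3, its lowest knockout liver, it was at 0.30 (adjusted p = 0.0263). F5, of the cofactor factor V, was at -0.13 by both of its probe sets, and F2, of prothrombin, at 0.03.

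**Figure D4:**
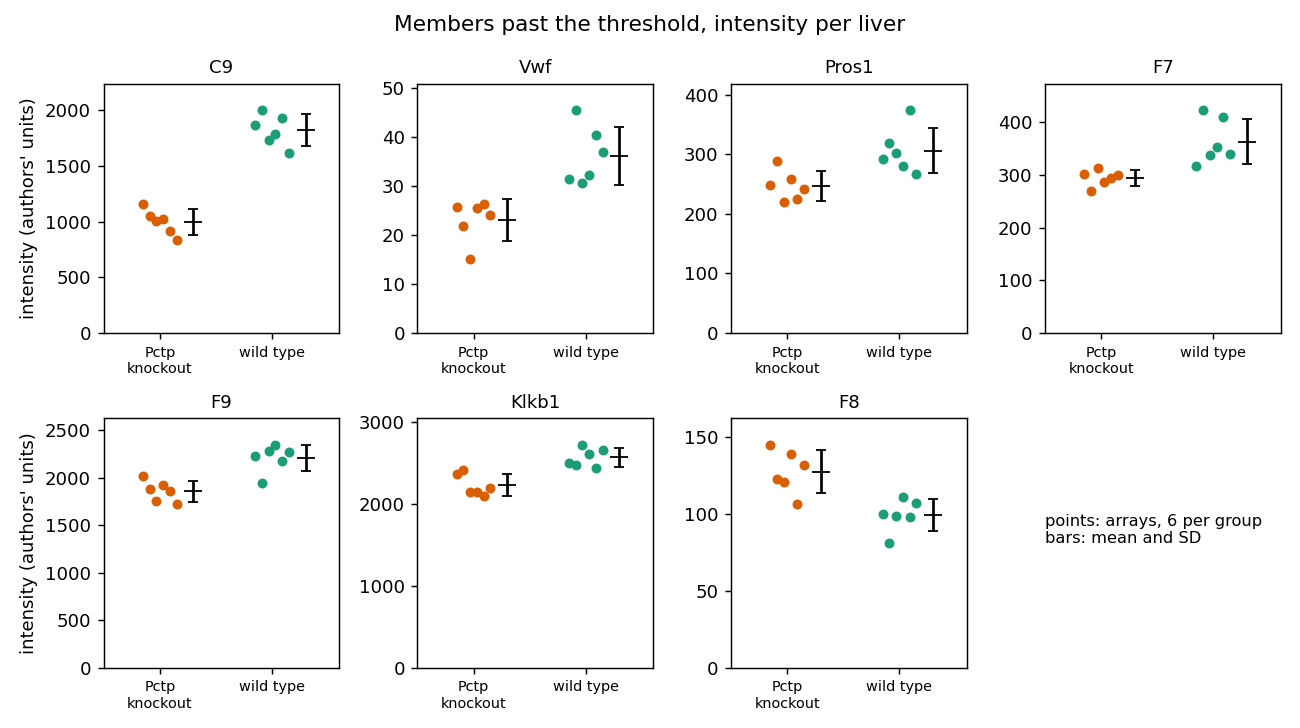
The vertical axes give intensity in the authors' units from 0, with knockout livers left of wild-type livers, 6 points each, and bars for the mean and SD. C9, F7, Klkb1 and Vwf show no overlap between groups, while Pros1, F9 and F8 overlap.

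None of the 5 genes of fibrin and its removal passed (limma, 1 with an unadjusted p under 0.05). The fibrinogen chain genes Fga, Fgb and Fgg lie side by side on chromosome 3. Fga averaged 7611 ± 454 in the knockout and 7011 ± 490 in the wild type (SD, n = 6 each; log2 difference 0.12, adjusted p = 0.217). Fgb was at 0.04 and Fgg at 0.03. Plg, of plasminogen, was at -0.03 and F13b, of the carrier subunit of the fibrin-crosslinking enzyme, at -0.10 (adjusted p = 0.173).

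Of Proc and Pros1 of the protein C system, and Proz, which was listed with them, only Pros1 was lower and none was higher. Over all genes 5.24% were lower and 6.46% were higher. Protein S, the product of Pros1, is the cofactor of activated protein C. Pros1 had a lowest, median and highest intensity of 219, 245 and 289 in knockout livers, against 267, 297 and 374 in wild-type livers, and the groups overlapped. The log2 difference was -0.29 (SE 0.0832, adjusted p = 0.0404, limma), or 1.22-fold lower. Pros1 did not pass when knockout replicate 1, 3, 4, 5 or 6 or wild-type replicate 1, 2, 3 or 5 was left out (adjusted p between 0.0519 and 0.0834). Without wild-type replicates 2 and 5 together it was at -0.20 (adjusted p = 0.127). Proc, of protein C, was at 0.03. Across the 7 vitamin K dependent members (F2, F7, F9, F10, Proc, Pros1 and Proz), 3 were lower (F7, F9 and Pros1) and none was higher, where 5.24% of all genes were lower and 6.46% were higher. Of these 3, F9 alone passed without wild-type replicates 2 and 5.

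Of 66 other genes listed for these cascades 47 were measured, of which 2 were lower and 2 were higher (4.26% each), close to the 5.24% and 6.46% of all genes. Lman1, the cargo receptor that carries factors V and VIII out of the endoplasmic reticulum, was 1.16-fold lower (1087 ± 28.3 in knockout, 1262 ± 78.8 in wild type; SD, n = 6 each; adjusted p = 0.0160, limma), without overlap. The gap was small, from 1110 in the highest knockout liver to 1112 in the lowest wild-type liver. The Lman1 call was lost with the replicate number as a block and without wild-type replicates 2 and 5 (limma, adjusted p at most 0.0650). Mcfd2, the partner of Lman1, did not pass, at -0.04. Cfhr2, of a factor H related protein, was 1.19-fold lower (adjusted p = 0.0139). Cr1l, which encodes Crry, a membrane inhibitor of complement in rodents, was 1.21-fold higher (881 ± 27.2 in knockout, 725 ± 53.2 in wild type; SD, n = 6 each; adjusted p = 0.00561, limma), without overlap. Plat, of tissue plasminogen activator, was 1.28-fold higher (adjusted p = 0.0323), a call lost without knockout replicate 3, 4 or 5 or wild-type replicate 6, with adjusted p from 0.0576 to 0.0709. Its log2 difference was 0.35, and 0.19 with an added constant of 64. The vitamin K enzymes Ggcx and Vkorc1 were at -0.15 and -0.02 and did not pass. C1qa, C1qb and C1qc, which macrophages make, were at -0.05, 0.31 and 0.13 and did not pass. Without wild-type replicates 2 and 5 the higher count was 7, namely Cr1l, C1qb, C1qc, Itgax, Itgb2, Vsig4 and Hp, and the lower count was 1, Cfhr2, of 47 genes each, where 5.75% of all genes were higher and 3.28% were lower in the same fit. C1qb, C1qc and Vsig4 are in the Kupffer cell and macrophage marker sum that was high in those 2 livers. Leaving the livers out raises the difference of such genes by construction.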

How the data were processed

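Liver RNA of 12 mice was labelled as biotinylated cRNA, per the labels' protocols, and hybridised to Affymetrix mouse arrays. The deposited intensity values, 1 per probe set and array on a linear scale, had been made by the authors with a program that is not named in the sources used. The deposited table of selected probe sets by the authors gave a score (a signed fold), an unadjusted p-value and a percent of present calls, of which the folds and present calls are quoted. Its 24 columns of values and calls per array were not used. The number of arrays limits the precision.

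After 64 control probe sets were left out, log2(intensity + 16) was tested for 22626 probe sets, knockout minus wild type, by the two-sided moderated test of limma 3.58.1 under R 4.3.3. P-values were adjusted by the Benjamini-Hochberg method over all tested probe sets, and the threshold was 0.05. Means and SD are of intensity, and a fold is the back-transformed log2 difference on that scale. A gene was represented by the probe set with the highest mean over all arrays. The procedure was tested on simulated data. Members and lists were chosen with earlier results of these data known. By the rule for names, members past the threshold get all values and the other members a range and count by role with the 3 brightest of each role. Members named beyond these, and other genes of the cascades that did not pass (Mcfd2, Ggcx, Vkorc1, C1qa, C1qb, C1qc and those past the threshold only under an alternative), were chosen after their values were seen.

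The alternatives were constants of 1 and 64, a minimum mean intensity of 50, array weights, a trended and robust variance, median centring, quantile normalization, an unmoderated test, replicate blocks, each array left out, and thresholds of 0.01 and 0.1. All probe sets of a gene were also averaged, and the values of that fit are not given here. Same-numbered knockout and wild-type arrays did not deviate together; the values are given with the alternatives. Chromosomes and promoters came from RefSeq (GRCm38.p6), and motifs were searched in Python 3.11.15.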

Additional observations from a re-analysis of the deposited data

Results flagged for a closer look

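Among the 76 groups formed by the 38 genes and both genotypes, 3 held a liver far from the other 5 of its group by Dixon's test, where chance flags about 5% of groups. Vtn read 5829.8 in knockout replicate 1, against 5272 to 5447 in the other knockout livers, and 4964 in wild-type replicate 6, against 5286 to 5462 in the other wild-type livers. Masp2 read 799 in wild-type replicate 2, against 903 to 940 in the other wild-type livers.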

How the results depend on the processing

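The 6 lower members became 3 with a replicate block (C9, F9 and Vwf, where 3.28% of all genes were lower). They became 1 (C9) at a threshold of 0.01, where 1.8% of all genes were lower. With 1 array left out they were 5 to 6, where 3.83% to 4.99% of all genes were lower. In the block fit F7, Klkb1 and Pros1 had adjusted p of 0.0774, 0.0735 and 0.0842. Same-numbered arrays deviated from their group means with correlations from -0.08 to 0.08, and 0 of 6 knockout arrays correlated best with their own number. No shared deviation by number was seen, which cannot show whether the numbers mark pairs. The single higher member became 0 at a threshold of 0.01, where 2.31% of all genes were higher. It became 2 at 0.1, where 1240 of all 12393 genes were higher. After the filter on dim probe sets it became 2, as F3 was added (adjusted p = 0.0425). There 12.5% of the genes kept were higher. It was 1 to 2 with 1 array left out, where 4.6% to 6.67% of all genes were higher. The dim filter kept 37 of the 38 members and left out Vwf. It gave 5 lower members, where 9.92% of the genes kept were lower. Pros1 was also lost with an added constant of 1 (adjusted p = 0.0527) and with the unmoderated test (0.0583). The 2 higher other genes became 1 after the dim filter, median centring or the unmoderated test. In these fits 12.5%, 4.92% and 6.25% of all genes were higher, in that order. They became 7 without wild-type replicates 2 and 5, where 5.75% of all genes were higher. With 1 array left out they were 1 to 3, where 4.6% to 6.67% of all genes were higher. The 2 lower ones became 1 with the replicate block or without wild-type replicates 2 and 5, where 3.28% of all genes were lower in each fit. With 1 array left out they were 2 to 3, where 3.83% to 4.99% of all genes were lower. They became 3 with a constant of 64, the dim filter, median centring, a trended and robust variance or the unmoderated test. In these fits 6.4%, 9.92%, 7.17%, 6.12% and 5.2% of all genes were lower, in that order. Each of these fits added Cpn2 (adjusted p from 0.0251 to 0.0332, against 0.0566 with the settings of the report). The 2708 probe sets past the threshold ranged from 2006 to 2742 with 1 array left out, and none of the 7 members and 4 other genes past the threshold changed direction under any alternative run. Low intensity limits Vwf most among the members.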

Other observations

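Within genotypes, single livers tended to read high or low for many members together. Knockout replicate 1 was the highest knockout liver for 26 of the 38 genes, and for 20 after median centring, and its array also had the highest median intensity of all, 91.2. Wild-type replicate 2 was the highest wild-type liver for 18 of the 38, and for 14 after median centring. The same counts were not made over all genes, so whether this is particular to the members is not known.

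The 5 genes whose deviations from their group means were most like those of C9 over the 12 arrays, among 8303 genes with a mean intensity of at least 50, were Nt5c2, Dnajc7, Pttg1, Racgap1 and Rab33b. None of them passed the test between genotypes, with log2 differences from -0.06 to 0.33.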
